A study of Mus musculus with 36 samples.

Results

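The RNA libraries and Pax5 peak lists of the series were read at 6 genes: *Bach2*, *Bcl6*, *Cdkn2a*, *Trp53*, *Cdkn1a* and *Mdm2*. They were taken by symbol, 6 of the 46078 rows of the table of sorted cells, of the 35896 rows of the table of *Pax5*-/- cells and of the 18721 rows of the table of cultured wild-type and *Sirt7*-/- cells. All 6 passed the filter on low values in all 3 tables (10 or more normalized counts in 2 or more of 8 libraries), which left 17649, 13345 and 13651 genes. Pax5 peaks were taken over each gene and the 10 kb before its start.

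SIRT7 is a nuclear deacetylase, and the study asked how its removal of an acetyl group from a lysine (K198) of Pax5, the transcription factor that commits progenitors to the B lineage, bears on early B cell development. The sorted cells came from the bone marrow of adult mice, either wild-type or *Sirt7*-/- with a germline deletion, and were pro-B or pre-B cells, with 2 mice of each genotype and both stages taken from each mouse. The *Pax5*-/- cells were pro-B cells grown on mitomycin-treated OP9 stroma with IL-7, SCF and FLT3-L and given a retrovirus with no insert (EV), Pax5WT, Pax5K198Q (a glutamine in place of the lysine, which resembles the acetylated residue) or Pax5K198R (an arginine, which cannot be acetylated). The labels give their origin as bone marrow and the study's methods as fetal liver. The third table held pro-B cells in the same culture: wild-type cells with EV, and *Sirt7*-/- cells with EV, Pax5WT or Pax5K198R. Each of the 12 RNA groups had 2 libraries, 24 in all. The *Pax5*-/- cells lacked functional Pax5 by their genotype and received each form from a retrovirus, while the cells of the third table kept their own Pax5 besides. Pax5 ChIP-seq, read against input DNA, was available for *Pax5*-/- cells with each of the 3 Pax5 forms, with 2 peak lists per form.

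Whole counts could be recovered from the sorted table by taking the lowest nonzero value of each library as 1. They summed to 50004827 to 55536608 per library, which are estimated counts assigned to genes and not the sequencing depth. The normalized counts summed to 28865461 to 30520853 per library in the *Pax5*-/- table and to 27814214 to 30160880 in the table of cultured cells, where whole counts could not be recovered. The tables were normalized separately, and levels were compared only within a table. A gene was called at an adjusted p under 0.05 in limma (Benjamini-Hochberg, over all genes tested), and fold changes are on the log2(normalized count + 1) scale.

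*Bach2* and *Bcl6* encode transcriptional repressors with a BTB domain: Bach2 is a basic leucine zipper factor that pairs with small Maf proteins, and Bcl6 is a zinc finger factor. In the current picture of the pre-B cell receptor checkpoint, Bach2 holds back proliferation and opens the way to p53 activity, and Bcl6, induced when IL-7 signalling falls, represses *Cdkn2a* and *Trp53* and so shields cells that are recombining their light chain genes. *Cdkn2a* encodes both the CDK4/6 inhibitor p16Ink4a and p19Arf, which blocks Mdm2; *Trp53* encodes p53; *Cdkn1a*, a classical p53 target, encodes the CDK inhibitor p21; and *Mdm2*, also a p53 target, encodes the ubiquitin ligase that degrades p53. Gene-level counts cannot separate the p16Ink4a and p19Arf transcripts, and they hold no information on the p53 protein, which is regulated mainly by its stability.

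Sequences under the Pax5 peaks are shown first for the 2 members that were higher in *Pax5*-/- cells given Pax5, *Bach2* and *Cdkn2a*, and for *Bcl6*, whose window was the only one of the 5 searched to hold the motif. Each is the 300 bases centred on the summit of the peak with the highest fold enrichment over input among the member's peaks that were found in both lists of Pax5WT or both lists of Pax5K198R, read from the mm10 genome on the strand of the gene, 5′ to 3′. The motif, AGCNTGAC, is the end of the binding motif of the Pax5 paired domain, was sought on both strands, and is in capitals where found. The *Bach2* window is chr4:32238476-32238775 on the plus strand, 0.18 kb before the start of the gene, with a fold enrichment of 9.31 in Pax5WT replicate 2.
Bach2: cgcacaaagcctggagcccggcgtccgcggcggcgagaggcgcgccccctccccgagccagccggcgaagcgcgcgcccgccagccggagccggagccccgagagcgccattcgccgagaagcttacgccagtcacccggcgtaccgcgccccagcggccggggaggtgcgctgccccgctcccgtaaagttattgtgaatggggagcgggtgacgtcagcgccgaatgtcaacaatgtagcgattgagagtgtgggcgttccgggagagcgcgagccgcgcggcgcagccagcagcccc
The *Cdkn2a* window is chr4:89294660-89294959 on the minus strand, 0.16 kb before the first of its starts, with a fold enrichment of 10.1 in Pax5K198R replicate 1.
Cdkn2a: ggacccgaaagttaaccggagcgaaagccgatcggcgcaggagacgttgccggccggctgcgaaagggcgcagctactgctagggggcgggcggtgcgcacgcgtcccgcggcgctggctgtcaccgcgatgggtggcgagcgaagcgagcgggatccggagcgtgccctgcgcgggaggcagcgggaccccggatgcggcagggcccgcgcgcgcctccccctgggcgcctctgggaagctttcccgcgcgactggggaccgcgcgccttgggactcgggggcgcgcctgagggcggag
The *Bcl6* window is chr16:23984237-23984536 on the minus strand, in an intron 4.46 kb after the start, with a fold enrichment of 8.58 in Pax5K198R replicate 2. Its one match lies after the summit in the printed direction and reads on the opposite strand to the gene.
Bcl6: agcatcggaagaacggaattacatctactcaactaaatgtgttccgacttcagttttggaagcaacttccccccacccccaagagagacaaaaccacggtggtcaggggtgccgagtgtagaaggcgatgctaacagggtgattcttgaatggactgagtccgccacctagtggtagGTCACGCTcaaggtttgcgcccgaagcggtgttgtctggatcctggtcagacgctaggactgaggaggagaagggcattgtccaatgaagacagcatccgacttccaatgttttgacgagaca
The *Bach2* and *Cdkn2a* windows were rich in G and C, 72.7% and 75.7% of their bases, compared to 52% in the *Bcl6* window. The windows chosen in the same way at *Trp53* (chr11:69581322-69581621, an intron, fold enrichment 3.81) and *Cdkn1a* (chr17:29095367-29095666, 4.63) held no match. Both genes had higher peaks in single lists, up to 6.84 and 5.83, which were not searched, and *Mdm2* had no peak. Across all summits, 6.36% and 6.03% of such windows held the motif in the 2 Pax5WT lists, 7.69% and 6.73% in the Pax5K198Q lists and 5.35% and 5.96% in the Pax5K198R lists, compared to 3.36% of 32851 RefSeq promoters of the same length. No match says only that these letters are not in the window.

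The labels were checked against the targeted genes and markers before the members were read. *Sirt7* was at 2690 and 2530 normalized counts in the wild-type pro-B libraries and at 363 and 366 in the *Sirt7*-/- ones. In pre-B cells it was at 5610 and 5220 compared to 1070 and 821, and in cultured cells at 1320 and 905 in the wild-type libraries and between 325 and 407 in the 6 *Sirt7*-/- libraries. *Pax5* RNA was not at 0 in the *Pax5*-/- cells with EV, at 2200 and 2100 normalized counts, and was higher in all 6 libraries given a Pax5 form. The cell type tag of the sorted libraries names every replicate 1 as pro-B and every replicate 2 as pre-B, against their titles. The markers went with the titles, which were used: *Dntt*, the terminal transferase of pro-B cells, was between 19400 and 30700 in the 4 libraries titled pro-B and between 131 and 3840 in those titled pre-B, and *Cd79b* was between 24000 and 27200 and between 70400 and 86900.

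Both libraries of the *Sirt7*-/- mouse 2 stood apart from the rest of the sorted libraries. The 6 erythroid markers together summed to 48230 normalized counts in its pro-B and 72883 in its pre-B library, compared to 5829 to 16303 in the other 6 libraries, with the globin gene *Hba-a1* at 19300 and 22300 compared to 2370 to 5260. Its pre-B library also held *Dntt* at 3840 compared to 423 in the other *Sirt7*-/- pre-B library, and *Vpreb1*, a surrogate light chain gene of pro-B cells, at 3270 compared to 982. NK cell markers summed to 1144 in its pro-B library, compared to 487 to 652 in the other pro-B libraries. In its pre-B library they summed to 728, compared to 157 to 360 in the others of that stage. In these bulk samples, fewer cells of a type and less RNA per cell cannot be told apart.

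*Cdkn1a* fell most steeply between the pro-B and the pre-B stage, and *Bach2* and *Mdm2* rose, in both genotypes. *Cdkn1a* was at 3140 and 3980 normalized counts in the 2 wild-type pro-B libraries and at 687 and 916 in the pre-B libraries. The groups lay far apart, a 4.45-fold difference (log2 fold change -2.15, SE 0.261, limma adjusted p = 0.00101). In *Sirt7*-/- cells *Cdkn1a* was at 5250 and 4060 in pro-B and at 928 and 1440 in pre-B libraries, again without overlap (log2 fold change -1.99, limma adjusted p = 0.00198). *Mdm2* went the other way, from 3810 and 3900 to 5670 and 6590 in wild-type cells (log2 fold change 0.66, SE 0.12, limma adjusted p = 0.00492) and from 3300 and 3910 to 5320 and 5730 in *Sirt7*-/- cells (0.62, adjusted p = 0.00813). The 2 p53 targets among the members thus moved in opposite directions between the stages.

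*Trp53* itself was nearly level across the 8 sorted libraries, between 19900 and 23300, a 1.17-fold range. Its wild-type groups did not overlap, with 20000 and 20800 in pro-B and 22700 and 21200 in pre-B libraries, but the difference was small (log2 fold change 0.11, limma adjusted p = 0.387). *Wrap53* overlaps the start of *Trp53* on the other strand; the library kit marked strand, and the strand setting of the counting is not given in the sources used here.

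*Bach2* was at 25800 and 33100 normalized counts in wild-type pro-B libraries and at 52400 and 51600 in pre-B libraries (log2 fold change 0.83, SE 0.116, limma adjusted p = 0.00169). In *Sirt7*-/- cells it was at 24200 and 23600 and then at 37900 and 38700 (log2 fold change 0.68, adjusted p = 0.00504). The pre-B libraries were above all pro-B libraries in both genotypes, and the 2 *Sirt7*-/- pre-B libraries lay between the wild-type pro-B and pre-B ones. *Bcl6* was at 2360 and 3930 in wild-type pro-B and at 3390 and 3990 in pre-B libraries, which overlapped and was not called. In *Sirt7*-/- cells it was at 2730 and 3100 in pro-B and at 4720 and 5120 in pre-B libraries, which did not overlap (log2 fold change 0.76, SE 0.229, limma adjusted p = 0.0401). This call was lost without any 1 of the 4 libraries (adjusted p 0.0953 to 0.16), and the wild-type difference was called without wild-type pro-B replicate 2 (adjusted p = 0.0325).

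*Cdkn2a* was close to the floor in sorted cells, with at most 34.1 normalized counts in a library and 0 in wild-type pro-B replicate 1. The 4 *Sirt7*-/- libraries held 9.17 and 13.8 in pro-B and 34.1 and 23.2 in pre-B cells, without overlap, compared to 0 and 18.6 in pro-B and 14.6 and 3.28 in pre-B cells of the wild-type. No difference was called at this depth. Of the 6 members, 3 were called between stages in wild-type and 4 in *Sirt7*-/- cells, among 40.2% and 35.7% of all genes tested, so that a call at this stage step was common. At a log2 fold change of at least 1.5 as well, 13.9% and 10.2% of genes passed, and of the members *Cdkn1a* in both genotypes. Groups did not overlap for 4 of 6 members in wild-type and 5 of 6 in *Sirt7*-/- cells, compared to 72.6% and 69.8% of all genes.

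**Figure D1:**
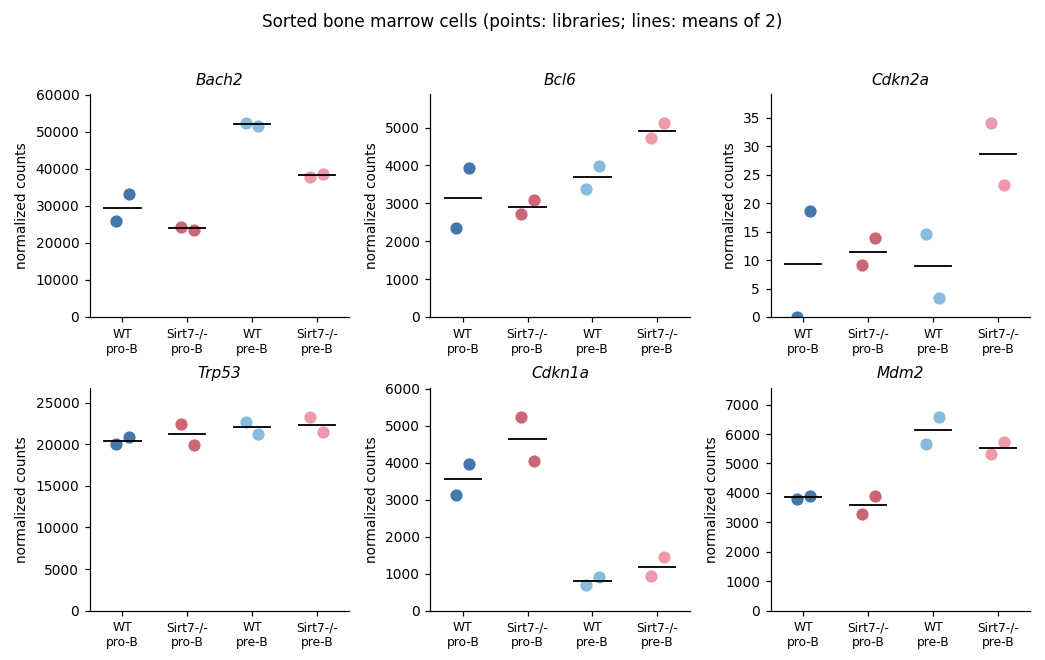
Normalized counts of the 6 members in sorted cells, with 1 point per library, a line at the mean of each pair and a linear axis from 0, for the pro-B and pre-B stage of both genotypes. *Cdkn1a* lay at or below 1440 in all 4 pre-B libraries and at or above 3140 in all 4 pro-B libraries, while *Trp53* kept between 19900 and 23300.

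The genes around the members are to be read against the shares of all genes called at this step, 40.2% in wild-type and 35.7% in *Sirt7*-/- cells. Of the p53 targets, for example, 11 of 26 were called in wild-type cells. All 24 cell cycle genes tested were called lower at the pre-B stage, in both genotypes. Their median was -1.71 on the log2 scale for the wild-type and -1.1 for *Sirt7*-/-, compared to -0.04 over all genes in each. *Mcm3*, a subunit of the replicative helicase, fell by 1.71 on the log2 scale in wild-type and by 1.08 in *Sirt7*-/- cells. Of 26 p53 target genes tested (the members apart), 7 were higher and 4 lower at the pre-B stage of the wild-type (median 0.26), and 5 were higher and 3 lower in *Sirt7*-/- cells, with a median of 0.03. Among those that rose were *Btg2*, an antiproliferative gene, from a mean of 7720 to 33400 normalized counts in wild-type cells (log2 fold change 2.12, limma adjusted p = 0.00115), *Rrm2b*, the p53-induced ribonucleotide reductase subunit, from 4770 to 13800 (1.53), and *Trp53inp1*, from 11700 to 31500 (1.43). In *Sirt7*-/- cells the same 3 genes rose by log2 fold changes of 1.56, 1.40 and 1.03. *Psrc1*, a spindle protein gene, fell by 1.48 on the log2 scale in wild-type cells.

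Of 16 genes that act on p53, 4 rose and 3 fell in wild-type cells. *Mdm4*, the partner of Mdm2, was higher by 0.72 (wild-type) and 0.69 (*Sirt7*-/-) on the log2 scale, and the acetyltransferase gene *Crebbp* by 0.67 and 0.82. *Npm1*, whose nucleolar protein binds p19Arf, fell by 1.36 in both. Around *Cdkn2a*, 4 of 8 genes were higher and 1 lower in the wild-type, and 2 were higher and 2 lower in *Sirt7*-/- cells. *Dmtf1*, an activator of the Arf promoter, rose by 0.76 and 0.51 on the log2 scale and *Cbx7*, a Polycomb protein that represses the locus, by 1.28 and 1.69, while the neighbouring *Mtap* fell by 2.20 and 1.62. Among the other CDK inhibitors, 1 rose and 1 fell of 4 in both genotypes: *Cdkn1b*, encoding p27Kip1, rose by 1.43 and 0.95 and *Cdkn2c*, encoding p18Ink4c, fell by 1.40 and 0.74.

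The genes listed as regulators of *Bach2* and *Bcl6* were higher in pre-B cells in 9 of 12 cases in wild-type and 8 of 12 in *Sirt7*-/- cells, and none was lower, compared to 18.1% and 16.5% of all genes called higher. The list was chosen with earlier results of these data known, so these counts only describe it. *Sirt7*, the gene under study, is among the genes counted in both genotypes, in *Sirt7*-/- cells as the RNA left from the deleted gene (means of 365 and 943). An action of *Sirt7* on either gene is not shown here. *Foxo1*, which activates *Bcl6* and the *Rag* genes, rose by log2 fold changes of 1.09 and 0.84, and *Ikzf3*, encoding Aiolos, by 1.57 and 1.94. *Pax5* was at 92900 and 83800 normalized counts in wild-type pro-B and 147000 and 125000 in pre-B libraries, and at 92900 and 82800 and then 130000 and 120000 in the *Sirt7*-/- ones. Among 12 partners, relatives and corepressors of the 2 repressors, 3 rose and 2 fell in wild-type cells, with *Bcor*, a corepressor of Bcl6, higher by 0.77 and 0.66 in the 2 genotypes. Of 12 genes that Bach2 or Bcl6 are known to repress or otherwise control, 3 rose and 2 fell in wild-type and 3 rose and 1 fell in *Sirt7*-/- cells. *S1pr1*, a receptor for exit from the marrow, rose by 2.30 and 2.04, and *Socs2* fell by 1.44 and 1.48. Of 8 markers of immature and mature B cells, 8 rose at this step in wild-type and 7 in *Sirt7*-/- cells, with *Ighd* between 10000 and 12900 in pro-B and between 63400 and 140000 in pre-B libraries. Of 10 T cell markers 8 and 6 fell, and their sum, led by *Lck*, was 8110 to 8761 in pro-B and 3229 to 4462 in pre-B libraries. Of 6 plasma cell markers 2 fell and 1 rose in wild-type, and 3 fell and 1 rose in *Sirt7*-/- cells. *Jchain* fell from a mean of 38500 to 1090 in wild-type and from 36400 to 2150 in *Sirt7*-/- cells, while *Sdc1* rose from 2850 to 4710 and from 2210 to 3980. Among myeloid markers *Lyz2* fell from 6400 to 861 and from 4170 to 515, while *Itgam* rose from 4790 to 9070 and from 4160 to 8750. The part of these markers in the changes of the members was not tested.

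Loss of SIRT7 changed none of the 6 members beyond the threshold at either stage. In all, 11 genes (0.0623%) were called in pro-B and 15 (0.085%) in pre-B cells, with 1048 and 2405 genes at an unadjusted p under 0.05. On the recovered counts edgeR called 10 and 5 genes and DESeq2 108 and 659, again without a member. The adjusted p of *Bach2* in pre-B cells was 0.215 by edgeR and 0.0587 by DESeq2. *Bach2* was lower in every *Sirt7*-/- library than in the wild-type libraries of its stage. It differed by -0.29 at the pro-B stage (log2 scale, SE 0.116, limma adjusted p = 0.825) and by -0.44 at the pre-B stage (SE 0.116, adjusted p = 0.195). *Cdkn1a* was higher in every *Sirt7*-/- library, by 0.38 in pro-B (SE 0.261, adjusted p = 0.933) and 0.54 in pre-B cells (adjusted p = 0.427). In pre-B cells *Bcl6* was also higher without overlap (3390 and 3990 compared to 4720 and 5120; log2 fold change 0.42, adjusted p = 0.478), as was *Cdkn2a* (1.83, SE 1.37, adjusted p = 0.598). Groups thus did not overlap for 2 of 6 members in pro-B and 4 of 6 in pre-B cells, compared to 39.3% and 41.4% of all genes.

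The step from pro-B to pre-B was not shown to differ between the genotypes for any member. The interaction was -0.15 on the log2 scale for *Bach2* (limma adjusted p = 0.974), 0.49 for *Bcl6* (0.955), 0.16 for *Cdkn1a* (0.996) and -0.04 for *Mdm2* (1.0), and 1 gene (0.00567%) of all tested was called, with 959 at an unadjusted p under 0.05. None of the 26 p53 target genes was called between the genotypes at either stage, with medians of 0.07 in pro-B and 0.02 in pre-B cells compared to 0 and 0.02 over all genes. At the pre-B stage all 24 cell cycle genes lay above 0 in *Sirt7*-/- compared to wild-type libraries (median 0.53), and none was called. Their summed level was 134851 and 180107 in the wild-type pre-B libraries and 184274 and 265031 in the *Sirt7*-/- ones, the highest being the library of mouse 2 described above. In the same comparison all 8 markers of immature and mature B cells lay above 0 (median 0.59), with *Ighd* at 82000 and 63400 in wild-type and 140000 and 100000 in *Sirt7*-/- pre-B libraries, and all 6 erythroid (1.89) and 5 of 6 NK cell markers (1.76) did. The NK cell markers summed to 360 and 190 in wild-type and to 157 and 728 in *Sirt7*-/- pre-B libraries. Only the library of mouse 2 (728) was thus above the wild-type ones. Of the myeloid markers 7 of 8 lay below 0 (median -1.2), and their sum was 18978 and 18038 compared to 16936 and 14507. No marker of these lists was called, and their part in the values of the members was not tested. In the pre-B library of mouse 2 the *Bach2* value, 38700, was close to the 37900 of the other *Sirt7*-/- pre-B library. Without this library of mouse 2 the *Bach2* difference was -0.46. Its *Cdkn1a* value, 1440, was well above the 928 of the other library, and without it the *Cdkn1a* difference was 0.23 in place of 0.54 on the log2 scale.

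In *Pax5*-/- pro-B cells the question was which members respond when Pax5 is returned, and whether the form of K198 matters. *Cdkn2a* rose with all 3 forms and *Bach2* with Pax5WT and Pax5K198R. *Cdkn2a* was at 63.2 and 88.4 normalized counts with EV, at 247 and 398 with Pax5WT, at 374 and 343 with Pax5K198Q and at 168 and 313 with Pax5K198R. All 6 Pax5 libraries were above both EV libraries, and the 3 forms overlapped each other in part. The increase was 4.15-fold with Pax5WT (log2 fold change 2.05, SE 0.352, limma adjusted p = 0.0242), 4.74-fold with Pax5K198Q (2.25, adjusted p = 0.033) and 3.04-fold with Pax5K198R (1.60, adjusted p = 0.0277). These calls were marginal. With any 1 of the 4 libraries left out the call was lost for Pax5WT (adjusted p 0.0622 to 0.195) and for Pax5K198Q (0.11 to 0.265), and for Pax5K198R it was lost without EV replicate 1 (0.159), EV replicate 2 (0.0714) or Pax5K198R replicate 2 (0.112), with *Cdkn2a* higher in every such fit.

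*Bach2* was at 994 and 1040 normalized counts with EV, at 1960 and 1740 with Pax5WT, at 1200 and 1220 with Pax5K198Q and at 1710 and 1960 with Pax5K198R. Pax5WT and Pax5K198R were side by side and well above EV, and Pax5K198Q lay just above EV. The log2 fold change over EV was 0.86 for Pax5WT (SE 0.113, limma adjusted p = 0.00787), 0.85 for Pax5K198R (adjusted p = 0.00372) and 0.25 for Pax5K198Q (adjusted p = 0.692). Compared directly, *Bach2* was lower with Pax5K198Q than with Pax5WT by -0.61 (unadjusted p = 0.000698, adjusted p = 0.264), in a comparison in which 3 genes (0.0225%) were called and 462 had an unadjusted p under 0.05. Groups did not overlap for 2 members there, *Bach2* and *Mdm2*, compared to 28.7% of genes. The Pax5WT call was lost without EV replicate 1 (0.0691), Pax5WT replicate 1 (0.0774) or Pax5WT replicate 2 (0.0524).

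*Bcl6* was low in these cells, at 247 and 172 normalized counts with EV, 149 and 180 with Pax5WT, 158 and 183 with Pax5K198Q and 292 and 216 with Pax5K198R. No form differed from EV without overlap. Pax5K198R lay above Pax5WT in both libraries (log2 fold change 0.61, limma adjusted p = 0.363), one of 38.4% of genes whose groups did not overlap there. *Cdkn1a* was at 5730 and 5580 with EV, at 5070 and 4130 with Pax5WT, at 6360 and 4800 with Pax5K198Q and at 4560 and 3340 with Pax5K198R. It was below EV without overlap for Pax5WT (log2 fold change -0.31, adjusted p = 0.568) and Pax5K198R (-0.53, SE 0.187, adjusted p = 0.131), and the second passed the threshold when Pax5K198R replicate 1 was left out (-0.76, adjusted p = 0.0465). It was also called with the replicate number as a block (-0.53, adjusted p = 0.00696). *Trp53* ranged from 6610 to 7530 over the 8 libraries and *Mdm2* from 2250 to 2940, and neither was called in any comparison; *Mdm2* was higher without overlap with Pax5K198Q than with Pax5WT (log2 fold change 0.11, adjusted p = 1.0).

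**Figure D2:**
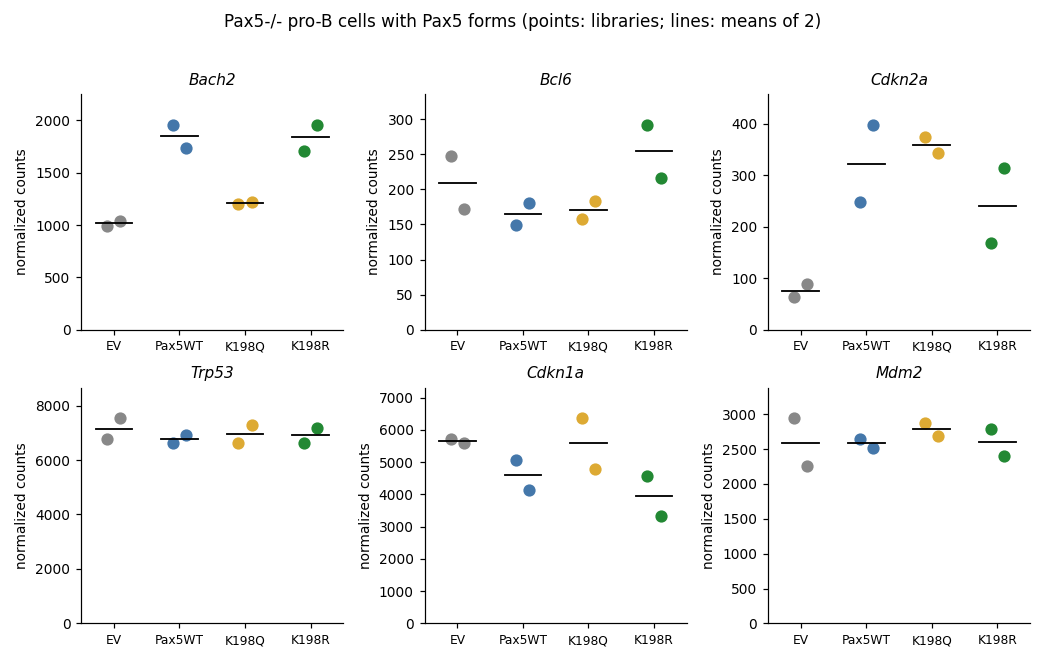
Normalized counts of the 6 members in *Pax5*-/- pro-B cells with an empty retrovirus (EV), Pax5WT, Pax5K198Q or Pax5K198R, with 1 point per library, a line at the mean of each pair and a linear axis from 0. *Bach2* was between 1710 and 1960 with Pax5WT and Pax5K198R and between 994 and 1220 in the other 4 libraries, and *Cdkn2a* was at or above 168 in all 6 libraries with Pax5.

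Of the 6 members, 2 were called with Pax5WT, 1 with Pax5K198Q and 2 with Pax5K198R over EV, each of them higher, and with the replicate block *Cdkn1a* was called too with Pax5K198R, and lower. Of all genes, 3.25%, 0.922% and 9.92% were called in either direction and 2.25%, 0.869% and 3.87% were higher. With the replicate block 1343, 363 and 2834 genes were called in place of 434, 123 and 1324. Groups did not overlap for 3, 2 and 3 members, compared to 42.6%, 34.2% and 46.8% of genes. The 3 comparisons share the EV libraries. No member was called between Pax5K198R and Pax5WT, where 383 genes (2.87%) were, or 1004 with the block, and the block raised the 3 genes between Pax5K198Q and Pax5WT to 29 without adding a member. The forms were not equally abundant as RNA. *Pax5* was at 2200 and 2100 normalized counts with EV and at 6460 and 6150 with Pax5WT, 8920 and 8960 with Pax5K198Q and 21200 and 16600 with Pax5K198R (Pax5K198R over Pax5WT, log2 fold change 1.57, adjusted p = 0.0029). The Pax5K198Q libraries were above the Pax5WT libraries in *Pax5* RNA and below them in *Bach2*. RNA does not give the protein level, which these data do not hold. In another cell line, the study reported less protein of Pax5K198Q and more of Pax5K198R than of Pax5WT. The part of *Pax5* RNA or protein in the values of the members was not tested. Stroma markers, led by *Fn1*, summed to 3348 to 8798 per library, without *Dcn* and *Lum*, which were listed at 0. Of 12 B cell progenitor markers tested, 10, 9 and 9 were higher with Pax5WT, Pax5K198Q and Pax5K198R over EV, and none was lower. With Pax5K198R 3 of 5 immature and mature B markers were higher and none was lower. There 2 of 5 T cell, 1 of 4 NK cell and 1 of 4 plasma cell markers were lower and none higher, and of 5 myeloid markers 2 were lower and 1 higher. The part of these markers in the values of the members was not tested.

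The p53 targets showed little common movement in these cells. Of 26 tested, 1 was higher and none lower with Pax5WT (median log2 fold change 0.17), 1 higher and none lower with Pax5K198Q (0.10), and 2 higher and 2 lower with Pax5K198R (-0.06), compared to medians of 0, -0.01 and 0.01 over all genes. The gene called with Pax5WT and Pax5K198Q was *Eda2r*, a receptor of the TNF receptor family, which rose from a mean of 9.52 to 33.2 normalized counts with Pax5WT (log2 fold change 1.71, limma adjusted p = 0.0461) and rose by 2.11 with Pax5K198Q (adjusted p = 0.0436). With Pax5K198R, *Pmaip1*, which encodes the proapoptotic protein Noxa, fell from 272 to 83.8 (log2 fold change -1.74, adjusted p = 0.0105) and was also lower than with Pax5WT (-2.61, adjusted p = 0.00856). *Rrm2b* and *Trp53inp1* rose by 0.67 and 0.68. *Hipk2*, a kinase that phosphorylates p53, was the 1 gene called of the 16 p53 regulators and rose with all 3 forms, from 892 with EV to 1800, 1620 and 1720.

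Around *Cdkn2a*, 1 of 9 genes was called with Pax5WT: the neighbouring *Mtap*, higher by 0.47 on the log2 scale (limma adjusted p = 0.0343) and by 0.35 with Pax5K198R (adjusted p = 0.0466). Of 12 regulators of *Bach2* and *Bcl6*, 5 were higher with Pax5WT, 4 with Pax5K198Q and 5 with Pax5K198R, and none was lower. Of all genes, 2.25%, 0.869% and 3.87% were called higher. *Pax5* itself, the gene supplied, is among the regulators called, and the list was chosen with earlier results of these data known. *Ikzf3* rose from 125 to 633, 392 and 1240 with the 3 forms, and *Foxo1* rose from 2070 to 4910 with Pax5K198R. With Pax5K198R compared to Pax5WT, *Ikzf3* and *Foxo1* were higher by log2 fold changes of 0.96 and 0.54 (limma adjusted p 0.0142 and 0.0189) and *Il7r* lower by -0.80 (0.0393). Of 11 targets of Bach2 and Bcl6 tested, none was called with Pax5WT or Pax5K198Q, and with Pax5K198R 1 was higher and 3 were lower, compared to 3.87% and 6.05% of all genes. *Irf4* rose by 1.56 on the log2 scale, and *Cebpb*, a myeloid regulator, *Id2*, an inhibitor of E proteins, and *Cd69* fell by 2.17, 1.93 and 0.70. None of the 24 cell cycle genes was called with Pax5WT, with a median of 0.08.

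In cultured *Sirt7*-/- pro-B cells with EV none of the members was called, and the values of *Bach2* and *Cdkn1a* lay on the other side of the wild-type than in sorted cells. *Bach2* was at 5340 and 5150 normalized counts in the wild-type EV libraries and at 6850 and 9310 in the *Sirt7*-/- EV libraries, above both (log2 fold change 0.61, SE 0.169, limma adjusted p = 0.223). *Cdkn1a* was at 5950 and 4410 in wild-type and at 3240 and 2540 in *Sirt7*-/- cells, below both (-0.84, SE 0.186, adjusted p = 0.138). Groups did not overlap for 2 of 6 members, compared to 34.6% of all genes, and 76 genes (0.557%) were called (288 with the replicate block, no member among them), with 1322 at an unadjusted p under 0.05. *Bcl6* (180 and 131 compared to 172 and 242), *Cdkn2a* (541 and 933 compared to 537 and 827), *Trp53* (9410 and 10800 compared to 9710 and 9800) and *Mdm2* (2820 and 2550 compared to 2620 and 2830) overlapped. The sorted cells were not cultured and the cultured ones carried a retrovirus, and the difference between the systems was not tested.

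Adding Pax5WT or Pax5K198R to the *Sirt7*-/- cells changed no member beyond the threshold, among 5 genes (0.0366%) and 659 genes (4.83%) called in all, or 268 and 1588 with the replicate block, which added no member. *Bach2* was at 8240 and 9280 with Pax5WT and at 7760 and 9820 with Pax5K198R, which overlapped the EV libraries. *Bcl6* was at 209 and 319 with Pax5WT and at 224 and 405 with Pax5K198R, likewise overlapping. *Cdkn2a* was at 976 and 674 with Pax5WT and at 469 and 481 with Pax5K198R, the latter pair below both EV libraries (log2 fold change -0.49, limma adjusted p = 0.473). *Cdkn1a* was at 3530 and 3520 with Pax5WT, just above EV (0.29, adjusted p = 0.691), and at 2340 and 2980 with Pax5K198R. *Trp53* was at 9510 and 8700 with Pax5WT, below EV without overlap (-0.10, adjusted p = 0.886), and at 10300 and 8360 with Pax5K198R, and *Mdm2* lay between 2520 and 3030 in these 4 libraries. Non-overlapping groups were found for 2 and 1 members in these comparisons, compared to 38.7% and 49.6% of all genes. *Pax5* was at 26000 and 37100 with EV, at 43000 and 43300 with Pax5WT and at 38700 and 45400 with Pax5K198R.

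**Figure D3:**
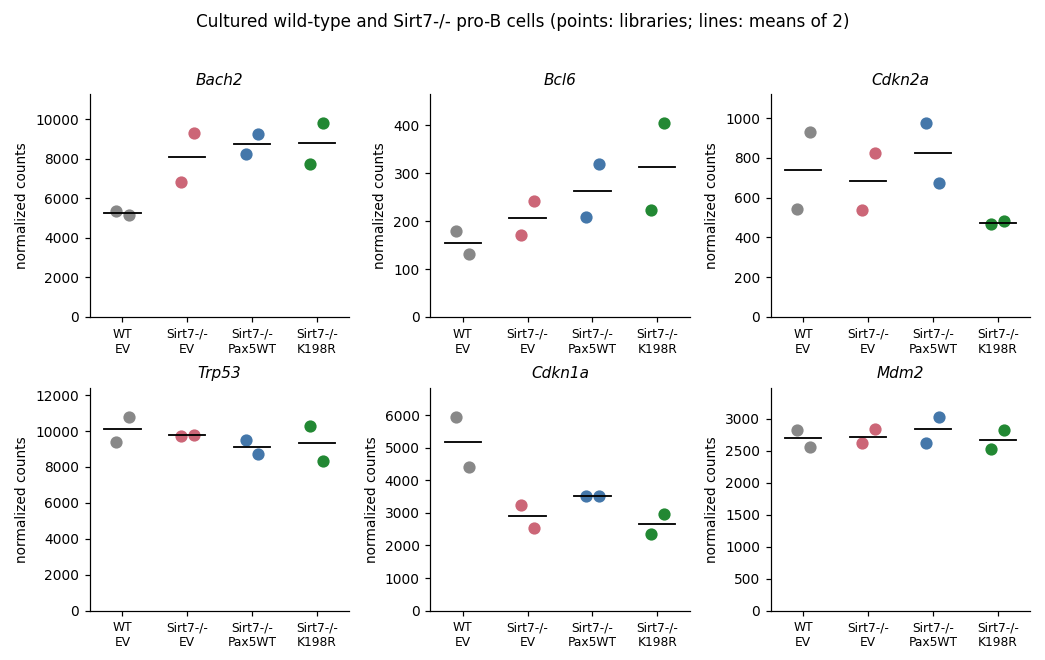
Normalized counts of the 6 members in cultured pro-B cells, wild-type with EV and *Sirt7*-/- with EV, Pax5WT or Pax5K198R, with 1 point per library, a line at the mean of each pair and a linear axis from 0. *Bach2* was at or above 6850 in the 6 *Sirt7*-/- libraries and at or below 5340 in the wild-type libraries, and *Cdkn1a* was at or below 3530 in the *Sirt7*-/- libraries and at or above 4410 in the wild-type ones.

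Of the genes around the members, few passed the threshold in these cultured cells. None of the 26 p53 target genes was called in any of the 3 comparisons, with medians of -0.16 for *Sirt7*-/- compared to wild-type EV cells, 0.20 for Pax5WT and -0.05 for Pax5K198R. Of the genes listed as regulators 2 were lower in *Sirt7*-/- EV cells. They were *Sirt7*, which is the deleted gene, and *Il7r*, the IL-7 receptor gene (log2 fold change -0.89, limma adjusted p = 0.0234). *Il7r* was lower again with Pax5K198R than with EV (-1.13, adjusted p = 0.00456). With Pax5K198R, *Ezh2*, a Polycomb methyltransferase that represses *Cdkn2a*, fell by 0.79 on the log2 scale (adjusted p = 0.0213) and *Bcl2l1*, encoding Bcl-xL, rose by 0.53 (adjusted p = 0.024). *Prdm1*, which encodes Blimp-1 and is the best known gene repressed by Bach2 and Bcl6, was at a mean of 22.5 normalized counts with EV and 2.49 with Pax5K198R (adjusted p = 0.0222), near the floor of the table. It was 1 of 3 plasma cell markers called lower there of 5 tested, with *Mzb1* (-1.08) and *Jchain* (-1.76), and none was higher. Of 4 T cell markers tested 2 were lower, *Lck* (-2.83) and *Tcf7* (-2.09), and none was higher. Markers of immature and mature B cells summed to 1354 and 1946 in wild-type EV, 4371 and 7557 in *Sirt7*-/- EV, 9919 and 21194 with Pax5WT and 18907 and 42619 with Pax5K198R. Stroma markers summed to 10283 to 34547, highest in Pax5WT replicate 2. The part of any of these markers in the values of the members was not tested.

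**Figure D4:**
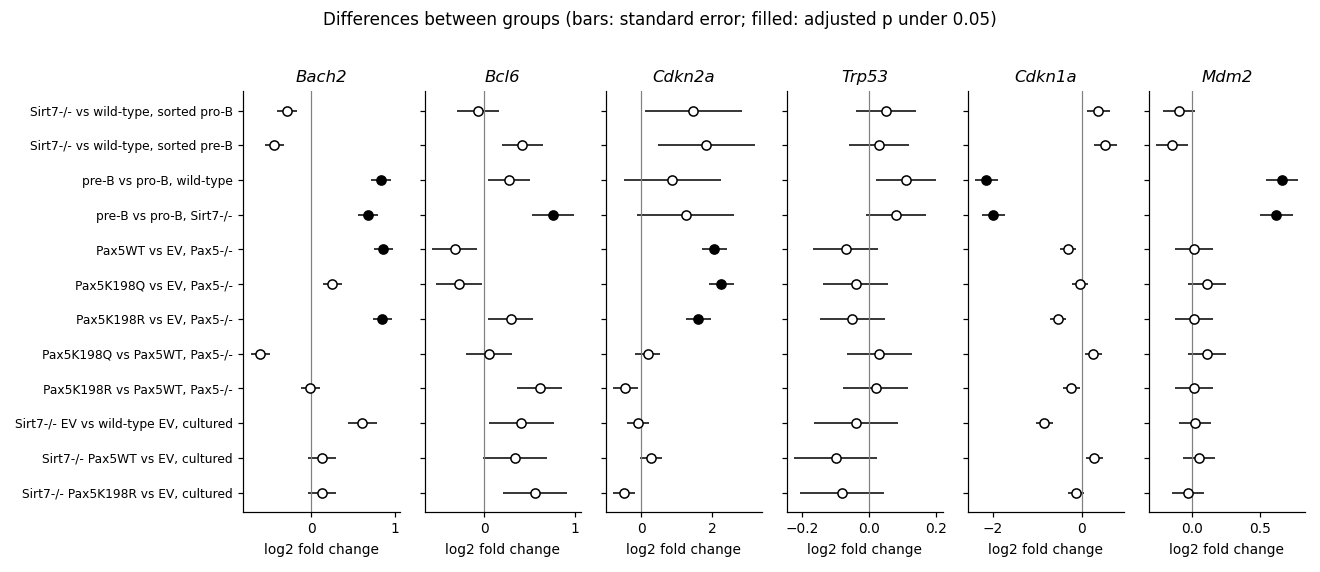
Differences between groups for each member in 12 comparisons, as log2 fold change on the x axis with the standard error as a bar, filled where the adjusted p was under 0.05, with an x axis of its own for each gene. *Bach2* and *Mdm2* rose and *Cdkn1a* fell between the stages in both genotypes, *Cdkn2a* rose with each Pax5 form in *Pax5*-/- cells, and *Trp53* stayed between -0.10 and 0.11 throughout.

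Per kb of exon, the order of the members changed between the systems. In sorted cells the medians over 8 libraries were 5272 normalized counts per kb for *Trp53*, 3570 for *Bach2*, 908 for *Mdm2*, 644 for *Cdkn1a*, 546 for *Bcl6* and 12.2 for *Cdkn2a*. The highest *Bach2* library (5276) reached into the range of *Trp53* (4920 to 5752), the ranges of *Mdm2* (648 to 1297), *Cdkn1a* (193 to 1477) and *Bcl6* (352 to 765) overlapped, and *Cdkn2a* lay below all of them. In *Pax5*-/- cells *Trp53* (1691) and *Cdkn1a* (1388) led, with overlapping ranges, and *Mdm2* (524, apart from its neighbours in every library), *Cdkn2a* (239), *Bach2* (148) and *Bcl6* (27.1) followed. There the range of *Bach2* lay inside that of *Cdkn2a*, 53.9 to 339, and *Bcl6* stood below all others. In the third table the medians were 2376 for *Trp53*, 952 for *Cdkn1a*, 805 for *Bach2*, 536 for *Mdm2*, 518 for *Cdkn2a* and 32.4 for *Bcl6*. *Trp53* was above all other members in every library there, and among the next 4 each range overlapped that of its neighbour in this order. *Cdkn2a* was thus the lowest of the 6 in sorted cells and *Bcl6* in both cultures.

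The members also differed in how far they ranged. From the lowest to the highest library, *Cdkn1a* spanned 7.64-fold in sorted, 1.9-fold in *Pax5*-/- and 2.54-fold in the other cultured cells, and *Trp53* 1.17-fold, 1.14-fold and 1.29-fold. *Bach2* spanned 2.22-fold, 1.97-fold and 1.91-fold. The genes whose log2 values followed a member most closely over the 8 libraries of each table, by the mean of the 3 Pearson correlations among 10371 genes, were *Dennd5b*, *Cdkl1* and *Tnks2* for *Bach2* (each 0.87), *Gria2* (0.90), *Dock10* (0.88) and *Adgrg3* (0.87) for *Cdkn1a*, and *Inpp5k* (0.87), *Zfp810* and *Nat9* (0.83 each) for *Mdm2*. For *Bcl6* they were *Tlr1* (0.84), *Scpep1* (0.81) and *Mapk11* (0.80), and for *Trp53* *Capzb* (0.83), *Eif3k* (0.82) and *Ap2b1* (0.78). *Cdkn2a* had the loosest neighbours, *Dnajb12* (0.69), *Tgfa* (0.67) and *Exo5* (0.66). The libraries within a table share their normalization and the groups, and these values describe likeness only.

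Pax5 peaks lay over 5 of the 6 members, most of them over *Bach2* and most with Pax5K198R. Over *Bach2* (chr4:32238804-32586108, plus strand) the 2 Pax5WT lists held 5 and 2 peaks, the Pax5K198Q lists 3 and 0 and the Pax5K198R lists 8 and 9. Found in both replicates were 2, 0 and 7. *Bach2* spans 347.3 kb, the longest member by far, and its density was 2.24 and 2.52 peaks per 100 kb in the Pax5K198R lists compared to 0.964 and 1.08 over all gene windows, and 1.4 and 0.56 in the Pax5WT lists compared to 0.815 and 0.929. In the Pax5K198R lists *Bach2* was, for its length, the sparsest of the 5 members with peaks. There *Cdkn2a* had 3.31 in each list, *Bcl6* 5.92 and 8.88, *Trp53* 9.3 in each and *Cdkn1a* 10.13 in each. Their windows hold 1 to 3 peaks in these lists. Other lists ordered the members differently. In Pax5WT replicate 1 *Trp53* and *Cdkn1a* had no peak, and in Pax5K198Q replicate 1 only *Bach2* had any, at 0.84 per 100 kb. The whole lists held 10646 and 11830 peaks for Pax5WT, 3750 and 3957 for Pax5K198Q and 12158 and 13997 for Pax5K198R.

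At the start of *Bach2*, around the sequence printed above, the region chr4:32238297-32238982 had a fold enrichment of 8.14 and 9.31 in the Pax5WT lists, 5.90 in Pax5K198Q replicate 1, no peak in Pax5K198Q replicate 2, and 5.87 and 4.56 in the Pax5K198R lists. The highest values were those of Pax5WT. The *Bach2* promoter listed by RefSeq lies at another start inside the gene (chr4:32417185-32417484) and was overlapped by no peak. A second region, in an intron 0.82 kb after the start of the gene (chr4:32239150-32240330), had 2.52 and 7.27 with Pax5WT, 6.24 in the first Pax5K198Q list and 6.94 and 4.76 with Pax5K198R. The first of these values had a −log10 q of 1.77 and was the weakest at this region. Another 5 regions were found in both Pax5K198R lists and not in both lists of another form: one 6.93 kb upstream, with 6.28 and 7.0, and introns at 10.48, 52.87, 120.43 and 152.63 kb. Of these, the regions at 120.43 and 152.63 kb also had a peak in Pax5WT replicate 1 (5.11 and 3.54), and the first of them one in Pax5K198Q replicate 1 (4.97).

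*Bcl6* (chr16:23965052-23988852, minus strand) had a peak at its start in both Pax5WT lists (5.33 and 4.66) and both Pax5K198R lists (7.06 and 5.6), and in neither Pax5K198Q list. The intronic region that holds the motif, 4.46 kb after the start, had 5.83 and 8.58 with Pax5K198R and 4.64 in Pax5WT replicate 2. *Cdkn2a* (chr4:89274471-89294653, minus strand) had a single region, chr4:89294559-89295048, at its upstream start, from which the p19Arf transcript begins. It had a fold enrichment of 8.42 and 7.98 with Pax5WT, 10.1 and 5.86 with Pax5K198R and 5.78 in Pax5K198Q replicate 2. The RefSeq promoter at that start was overlapped by peaks of 5 of the 6 lists, and the promoter at the start inside the gene (chr4:89282143-89282442) by none. *Cdkn2a* RNA was higher with all 3 forms, as given above, while the peak was found in both lists for Pax5WT and Pax5K198R only.

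At *Trp53* (chr11:69580359-69591873, plus strand), an intronic region 1.17 kb after the start had 5.0 in Pax5WT replicate 2 and 3.81 and 3.38 in the Pax5K198R lists. A peak 1.04 kb upstream, inside *Wrap53*, was in Pax5K198R replicate 1 alone (6.84), and one in a UTR exon, at 0.03 kb, in Pax5K198R replicate 2 alone (5.25). At *Cdkn1a* (chr17:29090976-29100727, plus strand), the region 4.58 kb after the start had 5.32 in Pax5WT replicate 2 and 4.63 and 4.25 with Pax5K198R. The region at 2.67 kb had 5.07 in Pax5WT replicate 2 and 5.83 in Pax5K198R replicate 2, and one at 3.85 kb had 3.38 in Pax5K198R replicate 1. *Mdm2* (chr10:117688875-117710758, minus strand) had no peak in any list.

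**Figure D5:**
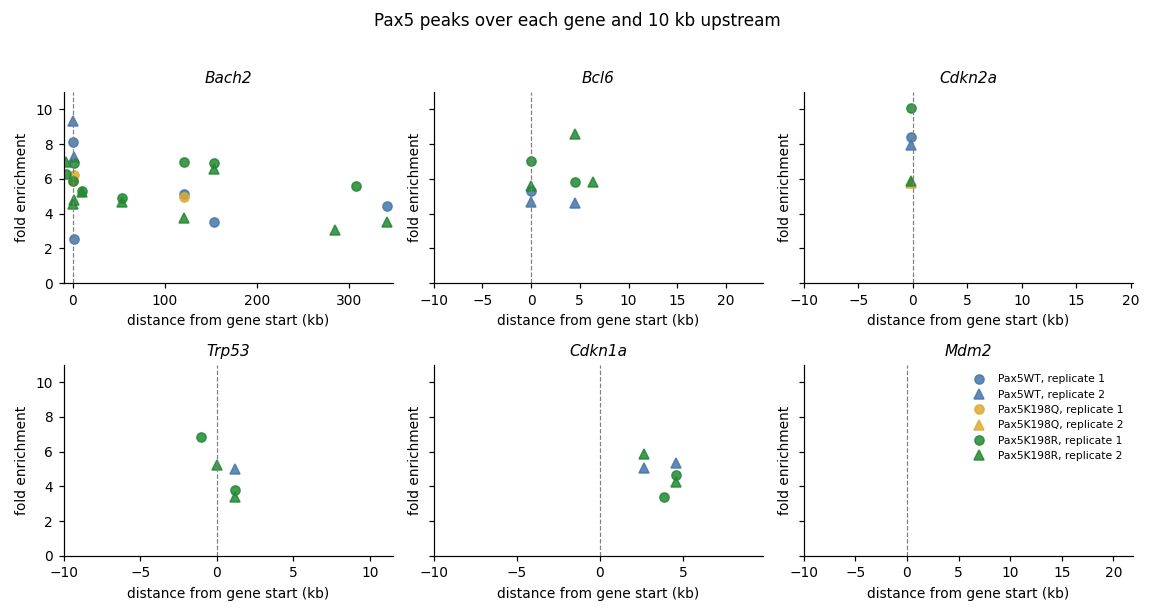
Pax5 peaks over each member and the 10 kb before it, with the distance of the peak from the start of the gene in kb on the x axis (its own scale for each gene) and the fold enrichment over input on a linear y axis. Circles are replicate 1 and triangles replicate 2, and colours are the Pax5 forms; peaks of Pax5K198R run along the length of *Bach2*, *Cdkn2a* has peaks only near its start, and the *Mdm2* panel is empty.

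In all, 20 regions were found at the members, 4 of them in both Pax5WT lists, 0 in both Pax5K198Q lists and 12 in both Pax5K198R lists. The peaks of the second Pax5K198R list carry internal names that begin with R3, and the list was taken as replicate 2, as deposited; alone, the 2 Pax5K198R lists held 15 and 17 regions. A peak in both replicates lay over 3 of 6 members with Pax5WT, 0 with Pax5K198Q and 5 with Pax5K198R, compared to 26.5%, 9.8% and 30.3% of 21938 protein-coding genes. All 4 Pax5WT regions were among the Pax5K198R regions. Over the 6204 peaks of the genome found in both lists of both forms, the median ratio of Pax5WT to Pax5K198R fold enrichment was 0.944, and at the 4 member regions it was 0.932. These 4 ratios ran from 0.789 to 1.67, and Pax5WT was the higher form in 2 of the regions. Peak lists were called in each replicate alone, a missing peak can be one just under the threshold, and lists of different length find different numbers of peaks at any gene. The *Pax5* RNA of the forms differed, as given above, as did their protein in another cell line of the study. The part of either in the number of peaks was not tested.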

How the data were processed

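RNA was measured by polyA RNA-seq and Pax5 occupancy by ChIP-seq in mouse B cell progenitors. The authors quantified RNA with Salmon against mm10 with GC bias correction, summed transcripts to genes and divided by DESeq2 size factors, and the deposited signal values are these normalized counts. Of the sorted values, 100.0% of those above 0 were whole multiples of the lowest (tolerance 0.001), which gave whole counts. These counts were used for edgeR (4.0.16) and DESeq2 (1.42.0) as alternatives. The authors called peaks per replicate with MACS2 over input after Bowtie2 alignment and removal of duplicates, and the deposited lists give a fold enrichment (a ratio) and the −log10 q of each peak. Input libraries were not used here.

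Each table was fitted with limma (3.58.1, R 4.3.3, with trend) on log2(normalized count + 1) over its 4 groups, on genes with at least 10 normalized counts in 2 libraries, and p-values were adjusted over all genes by Benjamini-Hochberg. The script was tested on simulated data. A comparison of 2 libraries against 2 cannot give an exact permutation p below 0.33, so no such test was used. Per the study's methods, replicates were made on separate days. Whether a replicate number marks the same day in each cultured group is not stated; replicate differences correlated at 0.16 to 0.43 between these groups, and values with the number as a block are given where they change a call or count. In the sorted table the 2 stages of a mouse pair by origin (correlation of the replicate differences 0.08 in wild-type and 0.16 in *Sirt7*-/-), and a fit with the mouse as a block, added after the data were seen, changed no call of a member. Groups were taken from titles and descriptions, since the cell type tag of the sorted libraries conflicts with them.

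Regions merged peaks of the 6 lists that overlap by at least 1 base. Gene positions and promoters are from GENCODE M21 and RefSeq, both on GRCm38 (mm10). Members and gene lists were chosen with earlier results of these data known. All members were given, and of each list at most 4 called genes with the smallest p and, for likeness, the 3 genes with the highest mean correlation. Alternatives were other filters, pseudocounts, scalings, fits, tools and peak settings, and each library left out in turn.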

Additional observations from a re-analysis of the deposited data

Results flagged for a closer look

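*Bach2* and *Cdkn1a* differed in opposite directions between *Sirt7*-/- and wild-type cells in sorted and in cultured progenitors. For *Bach2* the log2 fold change was -0.29 in sorted pro-B and -0.44 in sorted pre-B cells, with every *Sirt7*-/- library below the wild-type libraries, and 0.61 in cultured cells with EV, with every library above. For *Cdkn1a* it was 0.38 and 0.54 in sorted and -0.84 in cultured cells, again without overlap in any of the 3, as were the groups of 39.3%, 41.4% and 34.6% of all genes. Without the *Sirt7*-/- pre-B library of mouse 2 the *Cdkn1a* difference in sorted pre-B cells was 0.23. None of these differences was called, and the difference between the systems was not tested. The sorted cells were not cultured, and the others carried a retrovirus.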

How the results depend on the processing

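Each group held 2 libraries, so a call rests on few values, and where a library was left out the other of its group was assumed to vary like the rest. Single genes were followed only where called in some fit, where groups did not overlap, or for the interaction of genes called between stages. Other pairs of gene and comparison were left out, so sign changes among them are not counted. Of 532 alternative values for the genes followed, 9 changed sign, each on leaving out 1 library: the stage by genotype interaction ranged from -0.33 to 0.03 for *Bach2*, -0.16 to 0.48 for *Cdkn1a* and -0.17 to 0.08 for *Mdm2*, and the wild-type stage difference of *Bcl6* from -0.10 to 0.64. A further 18 lost their call on leaving out a library and 10 under other alternatives. Of the counts of members called, that between stages became 1 in each genotype with a log2 fold change of at least 1.5. Without the filter, the count for Pax5WT, Pax5K198Q and Pax5K198R over EV became 1, 0 and 1, without the trend 1, 0 and 1, and with the threshold of 1.5 Pax5WT and Pax5K198R each kept 1. With only the compared groups in the fit Pax5K198R kept 1. Leaving out a library gave 0 to 1 for Pax5WT, 0 for Pax5K198Q and 1 to 3 for Pax5K198R, with 3 where *Cdkn1a*, lower, was called without Pax5K198R replicate 1. The *Cdkn2a* call was lost without the filter (adjusted p 0.0554, 0.0889 and 0.057) and without the trend (0.0649, 0.105 and 0.0642), and the *Bcl6* call in *Sirt7*-/- cells without the filter (0.0774), without the trend (0.0832) and with equal totals (0.0548), while edgeR (0.0405) and DESeq2 (0.00676) kept it.

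With the replicate block in the cultured tables, the *Cdkn1a* difference for Pax5K198R over EV (-0.53) was called (adjusted p = 0.00696), no other member call changed, and genes called in all rose from 434 to 1343, 123 to 363 and 1324 to 2834 for Pax5WT, Pax5K198Q and Pax5K198R over EV, from 3 to 29 and 383 to 1004 over Pax5WT, and from 76 to 288, 5 to 268 and 659 to 1588 in the third table. Genes called between genotypes in sorted pro-B and pre-B cells were 11 and 15 by limma, 10 and 5 by edgeR, 108 and 659 by DESeq2, and 15 and 7 with the block, and for the interaction 1, 1 and 99 by the 3 tools, with no member among them. For peaks, a window of 50 kb upstream gave 7 regions in both Pax5WT lists and 2 in both Pax5K198Q lists, compared to 4 and 0 with 10 kb, and the sum over the 3 forms, in which a region found with 2 forms counts for each, was 25 compared to 16. With 1 list of a form in place of both, there were 7 to 8 with Pax5WT, 1 to 3 with Pax5K198Q and 15 to 17 with Pax5K198R.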
